A study of Mus musculus with 18 samples.

Results

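Livers of mice lacking the aryl hydrocarbon receptor (AHR) in hepatocytes were compared with livers of mice with an intact receptor gene, both without any dioxin. The comparison takes every vehicle library labelled dHep (mice 3, 9 and 15) and every vehicle library labelled WT (mice 1, 7 and 13), which is 6 of the 18 libraries of the series, and all 55536 genes in the count files. The mice were female C57BL/6. The series' design text names the mutant AhRΔHep and the reference AhRfl/fl, so the WT group carried a floxed but unrecombined Ahr gene, and the mutants carried that allele with AHR removed from hepatocytes. Peanut oil was given to both groups by gavage every 4 days for 92 days. The Cre line, the deleted part of Ahr and the age of the mice are not given in the sources used here. Each library is 1 mouse, and the mice are named below by group and number. 2 other sets of libraries serve for reference: vehicle livers labelled dHSC (AhRΔHSC, AHR removed from hepatic stellate cells; mice 5, 11 and 17), whose hepatocytes keep the receptor, and the dHep and WT livers given 100 µg/kg TCDD (2,3,7,8-tetrachlorodibenzo-p-dioxin) on the same schedule.

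AHR is a ligand-activated transcription factor held in the cytoplasm by a chaperone complex with HSP90. Once bound by dioxins, dietary indoles or tryptophan metabolites it enters the nucleus, pairs with ARNT and binds dioxin response elements with the core GCGTG. Its best known targets are the monooxygenases Cyp1a1, Cyp1a2 and Cyp1b1 and its own repressors Ahrr and Tiparp. Cyp1a2 is normally abundant in hepatocytes around the central vein, whereas Cyp1a1, Cyp1b1 and Ahrr are scarce in an unexposed liver.

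The 4 genes that the results turn on most are shown by their RefSeq promoter windows (build GRCm38.p6, 250 bases before to 50 after the start, in the direction of transcription), so that the response element core can be seen; capitals mark GCGTG, or CACGC where the core lies on the other strand. The windows are chr13:74292282-74292581 (minus strand) for Ahrr, chr17:79715012-79715311 (minus) for Cyp1b1, chr9:57697363-57697662 (plus) for Cyp1a1 and chr9:57683606-57683905 (minus) for Cyp1a2.
Ahrr: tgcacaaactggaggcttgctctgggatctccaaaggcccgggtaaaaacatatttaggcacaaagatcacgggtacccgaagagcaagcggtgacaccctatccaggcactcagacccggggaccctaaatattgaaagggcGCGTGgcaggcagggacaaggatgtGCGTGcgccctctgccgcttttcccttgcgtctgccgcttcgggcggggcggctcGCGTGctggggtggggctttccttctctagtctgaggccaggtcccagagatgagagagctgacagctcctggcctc
Cyp1b1: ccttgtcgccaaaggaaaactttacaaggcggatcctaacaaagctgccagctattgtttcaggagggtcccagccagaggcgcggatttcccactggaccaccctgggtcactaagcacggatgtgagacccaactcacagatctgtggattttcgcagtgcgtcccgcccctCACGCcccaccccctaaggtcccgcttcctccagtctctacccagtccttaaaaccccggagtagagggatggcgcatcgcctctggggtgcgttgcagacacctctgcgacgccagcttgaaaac
Cyp1a1: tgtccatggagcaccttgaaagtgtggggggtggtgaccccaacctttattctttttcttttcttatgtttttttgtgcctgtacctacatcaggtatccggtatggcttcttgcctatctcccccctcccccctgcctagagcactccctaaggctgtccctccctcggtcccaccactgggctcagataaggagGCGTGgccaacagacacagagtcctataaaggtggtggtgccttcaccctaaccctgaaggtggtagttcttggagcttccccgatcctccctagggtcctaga
Cyp1a2: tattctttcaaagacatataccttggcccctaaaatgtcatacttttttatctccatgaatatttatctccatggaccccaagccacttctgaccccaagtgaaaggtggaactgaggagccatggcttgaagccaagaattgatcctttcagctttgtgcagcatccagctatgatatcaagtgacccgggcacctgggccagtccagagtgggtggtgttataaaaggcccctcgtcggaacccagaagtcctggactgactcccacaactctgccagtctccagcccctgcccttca
Ahrr holds the core 3 times, Cyp1b1 and Cyp1a1 once each, and Cyp1a2 not at all in this window. Of all genes in the promoter table, 35.2% have GCGTG on either strand of a window, and of the tested genes that have a window 52.8% do. A promoter window was found for 26 of the 30 genes named by the rule given in the processing section, and 9 of the 26 hold the core.

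The 6 libraries held between 15183143 and 27240877 counted reads. Of these reads, 1.30% to 1.55% lay outside protein-coding genes in WT, but 1.33% in dHep 3, 3.77% in dHep 9 and 2.47% in dHep 15, so 2 of the 3 mutant livers stand apart from the WT group and from the mutant dHep 3. Genes of the mitochondrial genome took 5.55% to 9.29% of reads in WT and 6.56% to 9.96% in dHep. WT 1 stands apart in another way: the skeletal muscle markers summed to 2230 CPM there (counts relative to library size, scaled by the trimmed mean of M values) and to between 2.24 and 8.53 CPM in the other 5 livers. Fat markers were present in the same library, with adiponectin (Adipoq) at 20.1 CPM against at most 0.833 CPM in the others. The livers also differed in the state of the circadian clock: Dbp, a clock output gene, stood at 119 CPM in WT 1, 4.32 in WT 7 and 0.976 in WT 13, and at 7.04, 33.3 and 30.3 CPM in dHep 3, 9 and 15. Hepatocyte RNA dominated every library, with albumin (Alb) between 54382 and 121800 CPM, and the median difference of the hepatocyte identity list (16 of 17 members tested) was -0.18 on the log2 scale against -0.02 over all genes tested. The labels give no more than separate mice. The p-values and standard errors below rest on the spread between mice within groups, pooled over all 18 libraries of the fit.

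No gene passed the test between dHep and WT vehicle livers after adjustment. With p-values from edgeR's quasi-likelihood test adjusted by Benjamini-Hochberg, 0 of 14835 genes tested (0%) passed an adjusted p of 0.05, and the smallest adjusted p was 0.623. At an unadjusted p under 0.05 there were 1025 genes (6.91%), 815 higher in dHep (5.49%) and 210 lower (1.42%). DESeq2 called 4 genes: Apol7c, Cyp1b1 and Ahrr were higher in dHep, and the muscle enzyme gene Pgam2 was lower. Another method, limma voom with quality weights, called 2826 genes. Its weights were 0.496, 0.664 and 3.40 for WT 1, 7 and 13, and 0.263, 0.414 and 1.93 for dHep 3, 9 and 15. How far these unequal weights decided its result was not tested. The median standard error of a log2 difference was 0.443, for 3 mice a side with the spread pooled over all 18 libraries.

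**Figure D1:**
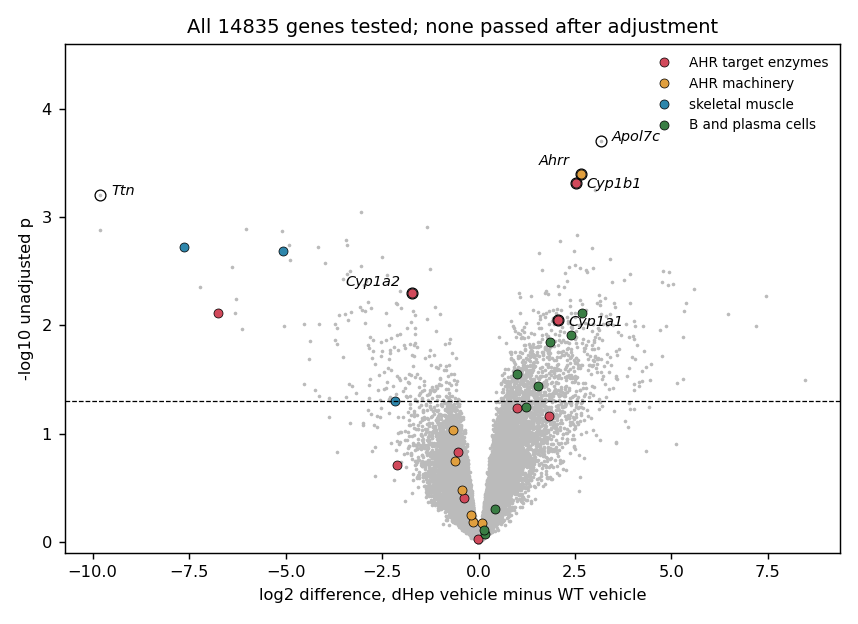
Each grey point is 1 of 14835 genes tested, with the log2 difference between dHep and WT vehicle livers on the horizontal axis and -log10 of the unadjusted p (edgeR's quasi-likelihood test) on the vertical axis; the dashed line marks 0.05. Apol7c, Ahrr and Cyp1b1 have the smallest p of all genes on the right, and the muscle gene Ttn (titin) lies farthest to the left of the labelled genes.

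Ahrr and Cyp1b1, both of the AHR pathway, were among the genes with the smallest p, whereas Ahr itself was not. Ahr (chr12:35497974-35535038, minus strand, GRCm38) stood at 32.7, 51.8 and 70.0 CPM in WT 1, 7 and 13 and at 56.8, 28.1 and 29.1 CPM in dHep 3, 9 and 15. The groups overlap, and the log2 difference was -0.44 ± 0.43 (SE, n = 3 a group; edgeR's quasi-likelihood test, unadjusted p = 0.331, adjusted p = 0.652). This level checks nothing about the labels, because the deleted part is not given, the counts cover the whole gene, another annotated gene overlaps it, and other liver cells keep the receptor; in whole liver, fewer cells with the transcript and less transcript per cell cannot be told apart. A check of the same genotypes comes from the TCDD livers, other mice of the series: Cyp1a1 reached 5873, 8328 and 5090 CPM in the WT livers and 304, 283 and 334 CPM in the dHep livers. The mutants given TCDD all lay far below the WT livers given TCDD.

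Ahrr, the AHR repressor that competes for ARNT (chr13:74211118-74292331, minus strand), was at 0.115, 0.0560 and 0.517 CPM in WT and at 1.54, 2.14 and 0.679 CPM in dHep. Every mutant liver lay above every WT liver; such separation occurred in the higher direction for 680 genes (4.58% of those tested). The levels are low, resting on 12 reads in the 3 WT libraries and 86 in the 3 dHep libraries. The fitted log2 difference was 2.65 ± 0.59 (SE; 95% interval 1.39 to 3.91), with an unadjusted p of 0.000398 and an adjusted p of 0.623 by edgeR's quasi-likelihood test. dHep 15 was the lowest mutant and WT 13 the highest reference liver, and each had 9 reads of Ahrr. Relative to the total count without TMM scaling they stood at 0.529 and 0.505 CPM, so the separation of the groups is narrow. The difference was 3.99 without WT 13 and 1.44 with library quality weights.

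Cyp1b1, a monooxygenase of estrogens and polycyclic hydrocarbons that is expressed mainly outside hepatocytes (chr17:79701537-79715061, minus strand), stood at 2.52, 1.01 and 2.70 CPM in WT and at 10.7, 21.2 and 3.92 CPM in dHep. The groups do not overlap, and dHep 9 was the highest. Its log2 difference was 2.52 ± 0.58 (95% interval 1.30 to 3.75; edgeR's unadjusted p = 0.000482, adjusted p = 0.623), 1.83 without dHep 9 and 1.37 with library quality weights.

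Cyp1a1, which oxidises polycyclic hydrocarbons (chr9:57687928-57703824, plus strand), stood at 33.2, 5.04 and 8.04 CPM in WT and at 78.9, 86.9 and 25.9 CPM in dHep. The groups overlap because WT 1 exceeded dHep 15; dHep 3 and 9 lay above every WT liver. The log2 difference was 2.05 ± 0.69 (95% interval 0.59 to 3.51; edgeR's unadjusted p = 0.00893, adjusted p = 0.623), and 3.28 without WT 1.

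Cyp1a2, which metabolises caffeine and aromatic amines and lies head to head with Cyp1a1 (chr9:57676937-57683703, minus strand), differed in the opposite direction. It stood at 1841, 1465 and 260 CPM in WT and at 256, 344 and 473 CPM in dHep. WT 1 and 7 lay above all mutants, but WT 13 lay within the mutant range, so the groups overlap. The log2 difference was -1.73 ± 0.53 (95% interval -2.86 to -0.60; edgeR's unadjusted p = 0.005, adjusted p = 0.623), and with library quality weights, which favour WT 13, it was 0.04. Per kilobase of exon, the mean level of Cyp1a2 was 590 CPM in WT and 178 in dHep, that of Cyp1a1 was 5.54 and 22.9, and that of Cyp1b1 was 0.356 and 2.05. On this per-length scale Cyp1a2 had the highest mean of the 3 enzymes in both groups, but its ratio to Cyp1a1 was smaller in dHep.

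Tiparp, an ADP-ribosyltransferase that dampens AHR, and Nqo1, a quinone reductase under AHR and NRF2, overlapped between the groups. Tiparp stood at 13.2, 6.84 and 9.47 CPM in WT and at 8.50, 10.1 and 7.17 CPM in dHep, a log2 difference of -0.20 (95% interval -0.90 to 0.51). Nqo1 stood at 15.1, 24.8 and 19.5 CPM in WT and at 22.8, 15.6 and 20 CPM in dHep, a log2 difference of -0.02 (95% interval -0.68 to 0.64). Neither group was above the other for these genes. The intervals, which use the spread pooled over all 18 libraries, show how large a difference could have been missed.

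**Figure D2:**
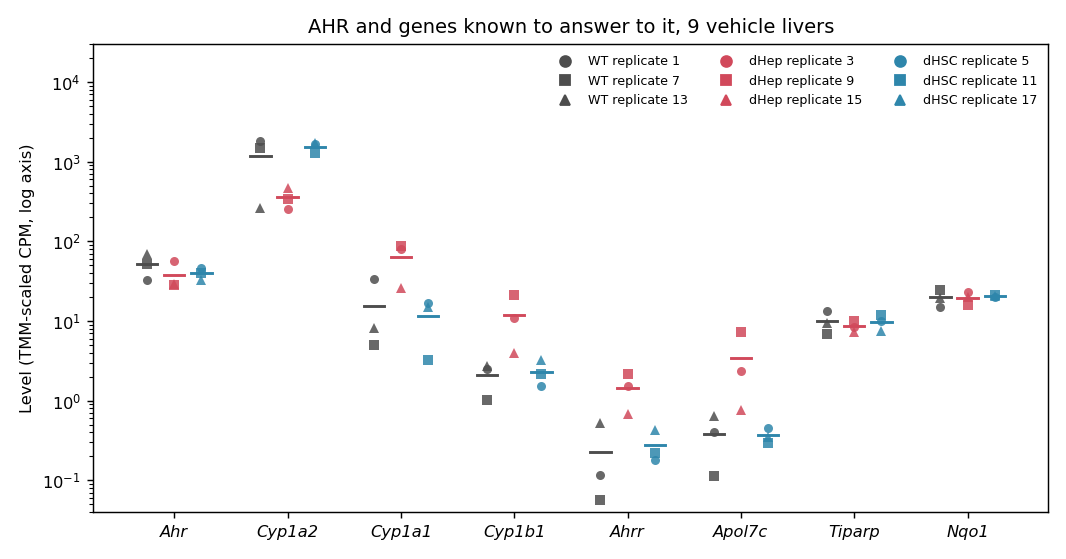
Levels of 8 genes in the 9 vehicle livers (TMM-scaled CPM on a log axis); each symbol is 1 mouse, coloured by group, and bars are group means. For Ahrr, Cyp1b1 and, with this scaling only, Apol7c the 3 dHep livers lie above all 6 livers with AHR in hepatocytes, whereas WT 13 sits among the dHep livers for Cyp1a2.

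Of the list of AHR machinery (7 of 8 members tested), Ahrr was the only one at an unadjusted p under 0.05, and the list's median log2 difference was -0.20 against -0.02 over all genes. The partner Arnt stood at 55.3, 34.3 and 44.9 CPM in WT and at 44.4, 21.6 and 21.7 CPM in dHep; the groups overlap through dHep 3. The chaperone gene Hsp90ab1 was lower in every mutant (723, 368 and 697 CPM) than in every WT liver (834, 1060 and 948 CPM), with an unadjusted p of 0.0923 by edgeR's test; 484 genes (3.26%) separated the groups in that direction. Of the list of AHR target enzymes (10 of 12 tested), 2 were higher (Cyp1a1, Cyp1b1) and 2 lower (Cyp1a2, Aldh3a1) at an unadjusted p under 0.05, and the list's median was -0.20. Aldh3a1, an aldehyde dehydrogenase, was counted in WT 1 alone (2.24 CPM) and stood at 0 in the other 5 livers, so that it reports on that 1 library. The remaining members, besides Nqo1 above, did not reach that threshold: Cyp2s1 (a monooxygenase) differed by 1.81 ± 0.93 on the log2 scale, Gsta1 (a glutathione transferase) by 0.99 ± 0.49, Ugdh (UDP-glucose dehydrogenase) by -0.37 ± 0.42, Xdh (xanthine dehydrogenase) by -0.53 ± 0.35 and Ugt1a7c (a glucuronosyltransferase) by -2.11 ± 1.55. Cyp2s1 was high in dHep 9 alone (12.7 CPM, against 0.377 to 2.24 CPM in the other 5 livers), and Ugt1a7c stood at 0.459 CPM or less in every liver.

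The vehicle livers labelled dHSC offered a second set of mice with AHR in hepatocytes. They stood at 1665, 1287 and 1693 CPM for Cyp1a2, 16.7, 3.24 and 15.1 CPM for Cyp1a1, 1.54, 2.14 and 3.24 CPM for Cyp1b1 and 0.181, 0.221 and 0.422 CPM for Ahrr, in mice 5, 11 and 17. For Cyp1a1 and Cyp1a2 every dHep liver was separated from every dHSC liver (3.26% of genes in the higher and 2.33% in the lower direction). Of the 6 livers with hepatocyte AHR, 5 had Cyp1a2 between 1287 and 1841 CPM, and the exception was WT 13. Against dHSC alone, the dHep livers differed by 2.45 ± 0.70 for Cyp1a1, -2.11 ± 0.54 for Cyp1a2, 2.38 ± 0.58 for Cyp1b1 and 2.43 ± 0.59 for Ahrr on the log2 scale. No gene passed adjustment in that comparison either (0 of 14835, 0%; 491 or 3.31% at an unadjusted p under 0.05 by edgeR's test); it shares the dHep libraries with the first, and its adjusted p for these 4 genes was 0.928. Ahrr and Cyp1b1 lay higher in all 3 dHep livers than in all 6 livers of the other groups, a separation found for 149 genes (1%) in that direction. For Ahrr it was narrow, since dHep 15 and WT 13 had 9 reads each.

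The same pathway was read in genes that TCDD changed in WT livers, using the dHep and dHSC vehicle livers. None of these livers enters the contrast that defines the genes, but they share the fit's filter, scaling and estimate of the spread. TCDD raised 509 genes in WT (3.43% of those tested, adjusted p under 0.05) and lowered 289 (1.95%), with WT 1 in the definition; 3 of the lowered genes are markers of skeletal muscle. Of the 509, 56 were higher in dHep than in dHSC vehicle at an unadjusted p under 0.05, which is 11% against 2.75% of all genes tested, and their median log2 difference was 0.20 against 0.00 over all genes. Of the 184 genes that TCDD raised over 8-fold, 30 were higher (16.3%), with a median of 0.57. Of the 289 lowered genes, 14 were lower (4.84% against 0.559% of all genes) and 10 higher (3.46% against 2.75%), with a median of -0.05. The share of reads outside protein-coding genes in dHep 3 was that of the WT livers. dHep 3 lay above all 3 dHSC livers in 27.3% of the raised genes (19.4% of all genes) and below all 3 in 17.1% (18.4% of all genes). Of the lowered genes, it lay below all 3 in 29.4% and above all 3 in 17.3%. With the definition made without WT 1, 561 genes were raised (407 of them among the 509) and 350 lowered (244 of the 289, no muscle marker among them). Of these raised genes, 9.63% were higher in dHep than in dHSC, with a median of 0.20. Of the 350 lowered genes, 3.43% were lower and 3.14% higher, with a median of 0.00. With this definition dHep 3 lay above all 3 dHSC livers in 24.1% of the raised genes and below all 3 in 19.8%. For the lowered genes it lay below all 3 in 27.4% and above all 3 in 18.6%. These are descriptions with no test, since genes within a list move together.

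Apol7c, an apolipoprotein L family member on chr15:77524852-77533316 (minus strand), had the smallest p of all genes. It stood at 0.401, 0.112 and 0.631 CPM in WT and at 2.32, 7.32 and 0.755 CPM in dHep. With TMM scaling all 3 mutants lay above all WT livers, dHep 15 by little, and above the dHSC livers at 0.453, 0.295 and 0.352 CPM. Relative to the total count without that scaling, dHep 15 (10 reads, 0.588 CPM) lay below WT 13 (11 reads, 0.617 CPM), and the same scaling decides the separation of 4 other named genes (Pdzrn3, Anxa13, Fhl1 and Shisa2). The log2 difference was 3.17 ± 0.66 (edgeR's unadjusted p = 0.000198, adjusted p = 0.623), resting on 20 reads in WT and 195 in dHep. It was 2.05 without dHep 9 and 1.44 with library quality weights. TCDD raised Apol7c in WT livers by 7.31 ± 0.73 on the log2 scale (adjusted p = 2.44e-05, edgeR's quasi-likelihood test), to 58.9, 59.1 and 66.8 CPM, and the dHep livers given TCDD stood at 64.4, 28.6 and 40.2 CPM. How reads shared with near-identical Apol7 genes were counted is not given in the sources used here, so its level carries that uncertainty.

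Besides Apol7c and Cyp1b1, 10 more genes had the smallest unadjusted p among genes averaging 1 CPM or more over the 6 livers whose 3 dHep livers all exceeded the 3 WT livers; none was called. Of these 12, 5 (Apol7c, St14, Pls1, Slc12a8 and Mid1) had a WT mean under 1 CPM and met that minimum only through dHep. They include the membrane serine protease matriptase (St14), the actin bundling protein plastin 1 (Pls1), the ubiquitin ligases Pdzrn3 and Mid1, the transporter Slc12a8, the epithelial shape regulator Shroom3, the epithelial annexin Anxa13, the collagen chain gene Col5a3, the liver phosphoinositide kinase Pik3c2g and the neuregulin receptor Erbb4. St14 stood at 0.917, 1.12 and 0.746 CPM in WT and at 1.50, 12.0 and 3.02 CPM in dHep (log2 difference 2.56 ± 0.67). Erbb4 stood at 8.88, 6.84 and 4.13 CPM in WT and at 9.74, 174 and 85.1 CPM in dHep (3.76 ± 1.11). Both genes were highest in dHep 9, and dHep 3 was barely above the WT range. Erbb4 was also high in dHSC 17 (51.9 CPM, against 6.43 and 13.4 CPM in dHSC 5 and 11), the remaining vehicle library with over 2% of reads outside protein-coding genes. For each of the 10 genes the highest dHSC liver exceeded dHep 3. Pls1 stood at 1.54, 1.25 and 0.844 CPM in dHSC 5, 11 and 17, above every WT liver. Its log2 difference between dHep and dHSC was 0.52 ± 0.51, so its rise was not particular to the dHep livers. All 12 genes of this group were highest in dHep 9. Without dHep 9 their median log2 difference moved from 2.54 to 1.35, and all 12 moved by over 1.5-fold. Without the libraries over 2% outside protein-coding genes, which leaves dHep 3 as the only mutant, it was 0.69 (0.35 to 2.59), and Ahrr, Cyp1b1 and Apol7c then stood at 2.72, 2.37 and 2.59. The 9 that moved by over 1.5-fold in that setting do not include these last 2.

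**Figure D3:**
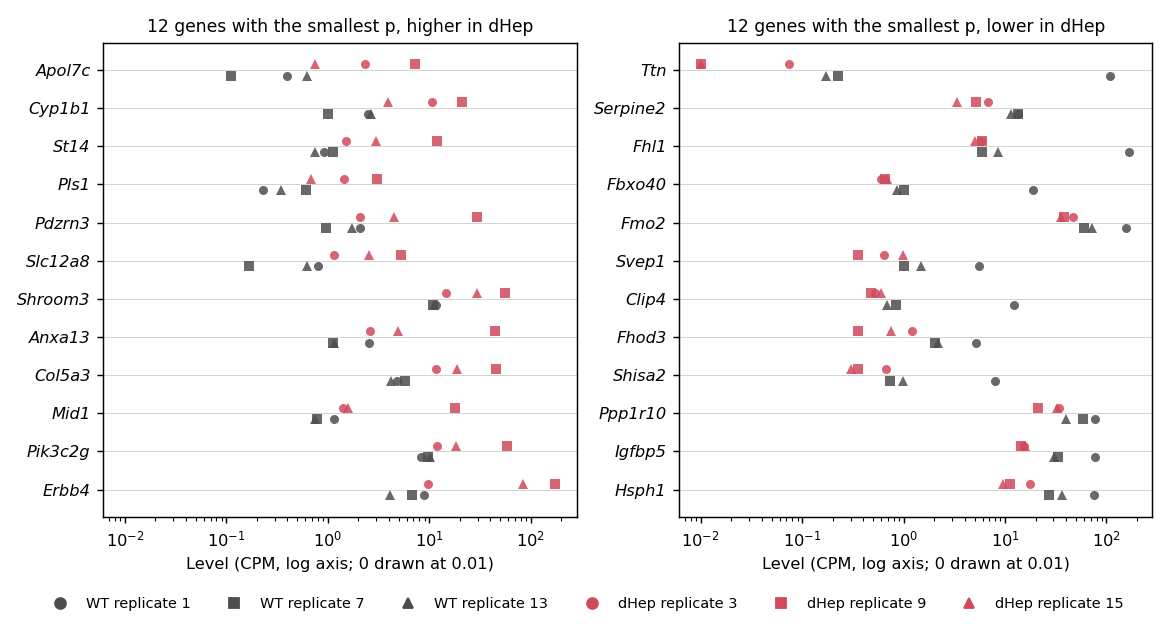
Levels (CPM on a log axis, 0 drawn at 0.01) of the 12 genes with the smallest p in each direction in the 3 WT (dark) and 3 dHep (red) vehicle livers; each symbol is 1 mouse. On the left the square of dHep 9 lies farthest right for all 12 genes, and on the right the circle of WT 1 lies far from the other livers for Ttn, Fhl1, Fbxo40 and Clip4.

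The pattern recurred across the genome. Of the 815 genes higher in dHep at an unadjusted p under 0.05, 738 (90.6%) were highest in dHep 9 among the mutants, against 35.9% of all genes tested. Protein-coding genes made up 78.0% of the 815 against 88.0% of all genes, and the median gene span was 30.6 kb against 22.6 kb. In 327 of the 815 (40.1%), dHep 3 also lay above all WT livers, as it did in 2223 of all 14835 genes tested. The 815 were chosen by a test that used dHep 3 and the same WT livers. A larger share among them was therefore built into the choice and is no separate evidence from dHep 3. The number higher at that threshold was 86 without dHep 9, 768 without dHep 15 and 1878 without dHep 3, and it was 695, 691 and 441 without WT 1, 7 and 13. In a fit with the share of reads outside protein-coding genes as a covariate, 133 genes were higher and 207 lower; beyond that fit, the part of this share was not tested.

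The 12 genes lower in every dHep liver with the smallest p were not called. They are divided here by whether they moved by over 1.5-fold without WT 1. Ttn (titin, the giant sarcomere protein) stood at 108 CPM in WT 1, 0.224 in WT 7 and 0.172 in WT 13, and at 0.0749, 0 and 0 CPM in dHep. Its level in dHep rests on 2 reads in all. Fhl1, Fbxo40, Clip4 and Shisa2 showed the same shape, with Fhl1 at 166 CPM in WT 1 and between 5.06 and 8.61 CPM in the other 5 livers; Fhl1 and Fbxo40 are known from striated muscle. WT 1 alone was high for these 5 genes, and it is the library with the muscle markers. The extracellular matrix protein gene Svep1 belongs with them, at 5.50 CPM in WT 1 and 1.01 and 1.49 CPM in WT 7 and 13. Without WT 1 the median size of the 12 log2 differences moved from 2.01 to 0.92, with Fhl1 at -0.39, Fbxo40 at -0.55, Clip4 at -0.53 and Svep1 at -0.94 (-2.02 ± 0.62 with all libraries).

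The other 6 moved by less than 1.5-fold without WT 1, but Fmo2, Igfbp5, Fhod3 and Hsph1 came close to that limit. Without WT 1 those genes stood at -0.74, -1.08, -1.43 and -1.32, Serpine2 at -1.30 and Ppp1r10 at -0.77. Serpine2 (protease nexin-1, a secreted serine protease inhibitor) stood at 13.5, 13.6 and 11.4 CPM in WT and at 6.78, 5.11 and 3.40 CPM in dHep, a log2 difference of -1.32 ± 0.34 (edgeR's unadjusted p = 0.00123, adjusted p = 0.623). The WT livers were tight and all above the mutants. The dHSC livers, at 5.52, 4.27 and 6.33 CPM, also lay below every WT liver, so both deletion groups stood below WT. Fmo2 (a flavin monooxygenase with female bias in mouse liver) stood at 155, 60.4 and 71.9 CPM in WT and at 46.5, 37.9 and 35.5 CPM in dHep (-1.26 ± 0.36). Its dHSC livers, at 73.6, 77.1 and 79.3 CPM, lay within the WT range and above all mutants. Igfbp5, an insulin-like growth factor binding protein, stood at 77.5, 33.0 and 30.4 CPM in WT and at 15.3, 14.3 and 15.6 CPM in dHep (-1.64 ± 0.54). The dHSC livers were spread from 9.99 to 49.1 CPM and overlap both groups. Ppp1r10, a nuclear phosphatase regulator, differed by -0.998 ± 0.33 and the formin gene Fhod3 by -2.00 ± 0.64.

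Of the 210 genes lower at an unadjusted p under 0.05, 173 (82.4%) were highest in WT 1 among the WT livers, against 38.2% of all genes tested. Without WT 1, 78 were lower at that threshold. Hsph1 (HSP110, a chaperone cofactor) stood at 76.0, 27.2 and 36.6 CPM in WT and at 17.7, 11.2 and 9.51 CPM in dHep, a log2 difference of -1.86 ± 0.64. It was highest in WT 1, and the difference was -1.32 without that liver. Lack of overlap was part of the rule that chose all 12 genes, so it supports none of them.

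**Figure D4:**
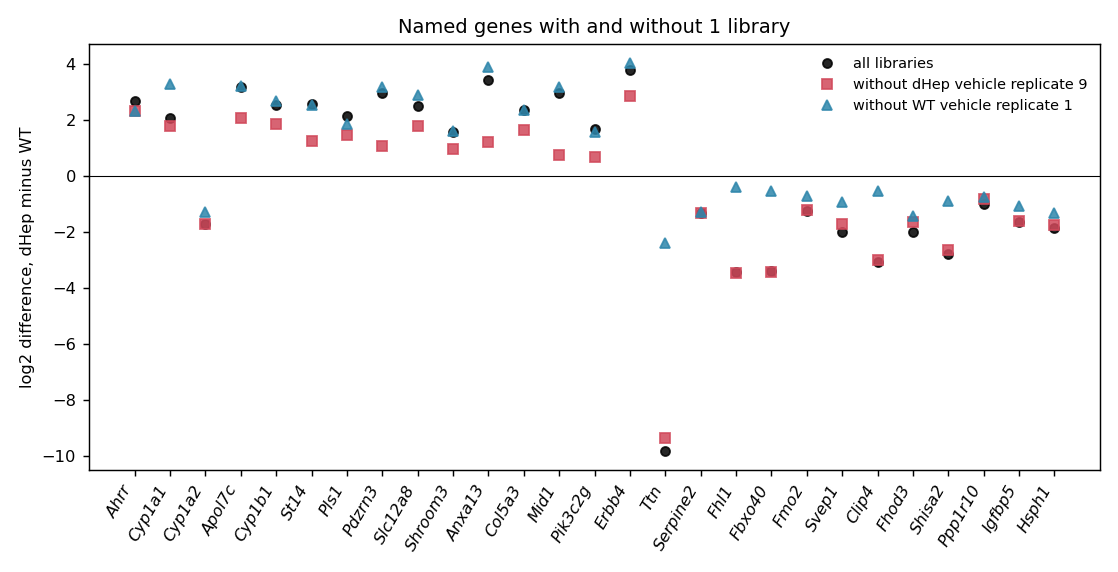
Log2 difference between dHep and WT vehicle livers for 27 genes, from all libraries (black), without dHep 9 (red) and without WT 1 (blue). The higher genes, on the left, shrink without dHep 9, several lower genes on the right shrink without WT 1, and Ahrr, Cyp1a1 and Cyp1a2 keep their direction in both.

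Hepatocyte functions were next read from lists. No member of any of the 50 lists (729 of 799 distinct genes tested) passed adjustment, so the counts below are at an unadjusted p under 0.05 (background 5.49% higher, 1.42% lower), with medians on the log2 scale against -0.02 over all genes. The median was near that of all genes for several metabolic lists and lower for others. It was 0.03 for pericentral and Wnt targets (0 higher and 1 lower of 17, the one being Cyp1a2), -0.18 for periportal and urea cycle genes (0 of 16), -0.13 for CAR and PXR targets (0 of 13), -0.14 for fatty acid oxidation and PPARα targets (1 higher of 20), -0.19 for cholesterol synthesis (1 higher of 19), -0.10 for bile acid genes (2 higher of 19) and -0.11 for NRF2 targets (1 higher of 18). Fatty acid and triglyceride synthesis had a median of -0.38 (1 lower of 18), lipid uptake, droplets and export -0.41 (1 lower of 17), and glucose and glycogen -0.39 (0 of 18).

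Within these lists the members given as examples differed in which livers stood apart. Ppara, the receptor that drives fatty acid oxidation, stood at 160, 44.1 and 108 CPM in WT and at 146, 666 and 187 CPM in dHep, with dHep 9 far above the rest. Hmgcs1, the cytosolic HMG-CoA synthase of cholesterol synthesis, stood at 152, 850 and 574 CPM in WT and at 708, 1252 and 2078 CPM in dHep; the groups overlap, and WT 1 is the low one. Nr0b2 (SHP, a bile acid feedback repressor) stood at 27.1, 64.9 and 24.5 CPM in WT and at 56.7, 188 and 108 CPM in dHep, again with overlap through dHep 3. Cps1, the first enzyme of the urea cycle, stood at 3467, 4410 and 4438 CPM in WT and at 3800, 669 and 804 CPM in dHep. dHep 3 lay within the WT range, and the low values of dHep 9 and 15 had their like in dHSC 17 (693 CPM), the library that shares their high share of reads outside protein-coding genes. Tat, the tyrosine aminotransferase of hepatocytes, was the single identity marker under 0.05, at 1860, 1605 and 1164 CPM in WT and 1117, 566 and 635 CPM in dHep.

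Genes with a sex bias in mouse liver, which follow growth hormone, showed a low median for the female-biased list (-0.46, 0 higher and 1 lower of 19) and -0.08 for the male-biased list (0 higher and 1 lower of 11). Major urinary protein genes, near-identical copies whose reads may be assigned among them with error, had a median of -0.36 (0 higher and 2 lower of 18). Their sum was 6974, 8836 and 14903 CPM in WT and 7196, 4449 and 11319 CPM in dHep, and the groups overlap.

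The heat shock list leaned one way: all 11 members tested had a log2 difference below 0, with a median of -0.75, although only Hsph1 was under 0.05 (0 higher, 1 lower). Chordc1, a partner of HSP90, stood at 46.4, 35.8 and 43.4 CPM in WT and at 32.6, 22.8 and 19.3 CPM in dHep. The groups do not overlap for Chordc1, Hsph1, Hspd1 and Bag3, that is 4 of 11 members against 3.26% of all genes, and leaving out each mouse in turn kept the median between -0.84 and -0.48. Circadian clock genes had a median of -0.54 (0 higher, 2 lower of 16) and moved with WT 1: their sum was 1104 CPM there, 441 and 457 CPM in the other WT livers and 448 to 487 CPM in dHep. The core clock gene Arntl stood at 1.09 CPM in WT 1 and between 10.2 and 31.6 CPM in the other 5 livers, so the medians of clock-linked lists carry that difference between mice.

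Markers of immune cells gave the highest list medians. Of the B and plasma cell markers, 5 of 9 tested were higher in dHep and 0 lower, and the median was 1.24. Pax5, the transcription factor of B cell identity, stood at 1.03, 0.280 and 0.804 CPM in WT and at 1.87, 9.04 and 2.87 CPM in dHep. Cd79b, a chain of the B cell receptor, stood at 2.29, 1.57 and 1.61 CPM in WT and at 3.45, 4.64 and 2.94 CPM in dHep. In both genes each mutant liver lay above each WT liver, as it did for 6 of the 9 markers against 4.58% of all genes. The plasma cell product gene Jchain and the IgM heavy chain gene Ighm overlap between groups (0.17 ± 0.84 and 0.42 ± 0.61). The summed list was 39.0, 15.9 and 16.8 CPM in WT and 34.8, 69.7 and 47.0 CPM in dHep; Igkc, Iglc1, Ms4a1 and Mzb1 were listed at 0 in all 6 libraries. Leaving out each mouse in turn kept the median between 1.003 and 1.43. In the dHSC livers Pax5 stood at 0.407, 0.737 and 1.05 CPM, below all mutants, but the summed list, at 20.1, 24.4 and 35.2 CPM, overlaps the dHep livers through dHSC 17, and the WT sum does so through WT 1.

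Neutrophil markers had a median of 1.23, with 3 of 11 higher and 0 lower. Their sum was 6.19, 3.47 and 7.35 CPM in WT and 7.94, 28.3 and 12.1 CPM in dHep. It was 5.02, 6.41 and 13.2 CPM in dHSC 5, 11 and 17, so dHSC 17 exceeded dHep 3 and 15. S100a8 and S100a9, the calprotectin subunits, stood at 1.24, 6.72 and 2.11 CPM and at 1.98, 7.85 and 2.64 CPM in dHep, against at most 1.03 and 1.89 CPM in WT. The margin of dHep 3 over WT 13 was small for both, and dHep 9 led. T and NK cell markers had a median of 0.66 (1 higher of 16) and monocyte and scar macrophage markers 0.28 (2 higher of 13). Kupffer cell and macrophage markers had a median of -0.12 (1 higher of 15), MHC class II and dendritic cell markers 0.24 (0 of 13) and liver endothelium 0.06 (0 of 17). Of chemokines and cytokines, 2 of 14 were higher: Cxcl1, a chemokine for neutrophils, at 1.43, 3.47 and 1.15 CPM in WT and 2.88, 10.5 and 10.2 CPM in dHep, and Tnf at 0.344, 0.392 and 0.230 against 0.487, 1.84 and 1.21 CPM. Tnf separates the groups and Cxcl1 does not. Interferon-stimulated genes had a median of 0.02 (2 higher of 20).

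Cholangiocyte and ductular markers had a median of 0.88, with 6 of 14 higher and 0 lower. Krt19, a keratin of bile ducts, stood at 5.50, 2.24 and 1.15 CPM in WT and at 1.50, 69.8 and 6.04 CPM in dHep. Muc1, an epithelial mucin, stood at 2.29, 0.504 and 0.976 CPM in WT and at 1.20, 41.2 and 1.66 CPM in dHep. The high values lay in dHep 9, and dHep 3 lay within the WT range for both. The summed list was 96.0 to 110 CPM in WT and 119, 356 and 201 CPM in dHep 3, 9 and 15. In dHSC 5, 11 and 17 it was 140, 83.9 and 155 CPM, so dHSC 5 and 17 exceeded dHep 3. Leaving out each mouse in turn moved the median between 0.30 and 1.20.

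Stellate cell lists had medians near that of all genes, and most collagen and matrix genes lay below 0. Activated stellate cell and myofibroblast markers had a median of -0.01 (2 higher and 1 lower of 16), which leaving out each mouse in turn moved between -0.83 and 0.75; their sum was 869 CPM in WT 1, 183 and 171 CPM in the other WT livers and 182, 523 and 281 CPM in dHep. The median was -0.14 for quiescent stellate cell markers (0 higher and 1 lower of 13) and -0.23 for collagens and matrix (0 higher and 1 lower of 22, with 18 members below 0 and 4 above), the latter between -0.56 and 0.28 with each mouse left out. Of matrix turnover genes, 3 of 13 were higher (Mmp13, Mmp14 and Mmp7) and 2 lower (Plat and Timp2). Mmp14, a membrane-bound matrix protease, stood at 56.1, 97.4 and 76.0 CPM in WT and at 70.3, 478 and 298 CPM in dHep, with dHSC 17 at 180 CPM. dHep 3 again lay with WT. Mitochondrially encoded genes had a median of 0.62 (0 of 13), and mt-Nd3 stood at 14.7 to 42.8 CPM in WT, 18.6, 186 and 165 CPM in dHep and 190 CPM in dHSC 17. Nuclear genes of oxidative phosphorylation had a median of -0.39 (0 of 24).

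**Figure D5:**
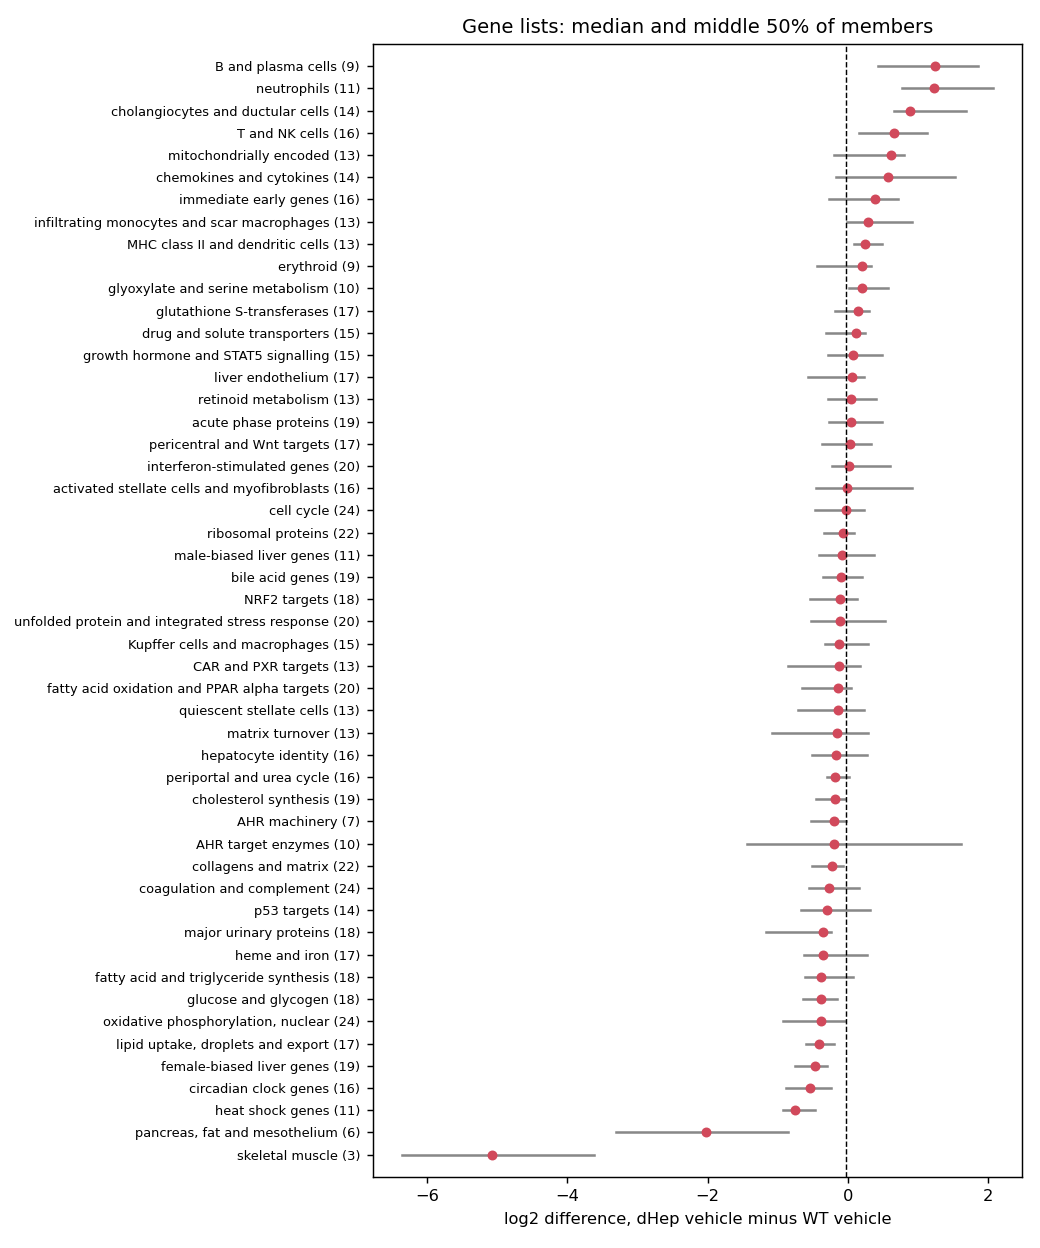
Median (point) and middle 50% (line) of the log2 difference between dHep and WT vehicle livers for 50 gene lists, with the number of members tested in brackets; the dashed line is the median of all genes. B cell, neutrophil and cholangiocyte lists lie farthest right, and skeletal muscle and fat lists, which hold the reads of WT 1, lie farthest left.

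Under TCDD the same 2 genotypes differed by more. In other mice, dHep TCDD against WT TCDD gave 288 genes called (1.94%), 122 higher (0.822%) and 166 lower (1.12%), again with Benjamini-Hochberg adjusted p-values of edgeR's quasi-likelihood test. Ahrr stood at 61.2, 63.0 and 60.6 CPM in WT TCDD and at 6.14, 4.33 and 4.42 CPM in dHep TCDD, a log2 difference of -3.63 ± 0.49 (adjusted p = 0.000756). Cyp1b1 differed by -3.80 ± 0.59 (adjusted p = 0.0021), Cyp1a1 by -4.39 ± 0.76 (adjusted p = 0.00453) and Cyp1a2 by -5.28 ± 0.62 (adjusted p = 0.000251). These 4 genes were thus lower in dHep under TCDD, whereas 3 of them had higher mean levels in dHep than in WT under vehicle. The change in the genotype difference was itself tested, and 127 genes (0.856%) passed. The levels put the vehicle difference in scale: the highest vehicle mutant had 2.14 CPM of Ahrr and 86.9 CPM of Cyp1a1, below every WT liver given TCDD.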

How the data were processed

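Poly-T selected liver RNA from 18 mice (6 groups of 3) was sequenced. Per the submitters' processing notes, the authors worked on build GRCm38 with HISAT2 2.1.0 and HTSeq 0.11.3, besides FastQC 0.11.9 and DESeq2 1.22.2; counting settings, including strand, are not given in the sources used here. The deposited files hold raw counts per gene. All 55536 identifiers matched GENCODE M21, whose names, types and coordinates were used; promoters came from RefSeq. Counts were fitted in edgeR 4.0.16 (R 4.3.3; filterByExpr, TMM, quasi-likelihood test, a mean per group over all 18 libraries), with Benjamini-Hochberg adjustment over 14835 genes. DESeq2 1.42.0 and limma 3.58.1 served as alternatives. The fit was tested on simulated data. Totals ran from 12706490 to 27240877 counts. No pair of libraries within a group agreed within sampling noise.

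The comparison, the members and the gene lists were chosen with earlier results of these data known. Named genes were Ahr, Ahrr, Tiparp, Cyp1a1, Cyp1a2, Cyp1b1 and Nqo1, plus, each way, up to 12 called genes averaging 1 CPM or more, with a proper symbol and no overlap between groups; with none called, the 12 of smallest unadjusted p took their places. List members with the smallest p served as examples. Planned descriptions of called genes by chromosome and by promoter motif could not be made, since none was called. A promoter window was available for 73.28% of tested genes. Among genes at an unadjusted p under 0.05 with a window, GCGTG was present in 46.3% of the higher and 39.0% of the lower ones. That compares with 52.8% of tested genes with a window, and no test was made. Columns of other samples: none.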

Additional observations from a re-analysis of the deposited data

Results flagged for a closer look

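For 11 named genes the difference between dHep and WT livers was not the same under TCDD as under vehicle, by the interaction term of edgeR's quasi-likelihood fit (127 of 14835 genes, 0.856%, at an adjusted p under 0.05). Each value is the log2 difference between genotypes in TCDD minus that in vehicle, and the 2 differences share no library. For AHR pathway genes it was -6.28 for Ahrr (adjusted p = 0.000932), -2.67 for Tiparp (adjusted p = 0.0131), -6.44 for Cyp1a1 (adjusted p = 0.00582), -3.54 for Cyp1a2 (adjusted p = 0.0353), -6.33 for Cyp1b1 (adjusted p = 0.00156) and -2.39 for Nqo1 (adjusted p = 0.017).

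Among the other named genes it was -6.12 for St14 (adjusted p = 0.00483), -6.10 for Pls1 (adjusted p = 0.00105) and -7.41 for Pdzrn3 (adjusted p = 0.00513), 3 genes that stood highest in dHep 9 under vehicle and at 28.1 CPM or more in every WT liver given TCDD. It was positive for Serpine2 at 2.38 (adjusted p = 0.0256) and for Fmo2 at 2.28 (adjusted p = 0.0461), 2 genes with a log2 difference between dHep and WT of -1.32 and -1.26 under vehicle (adjusted p = 0.623 for both, edgeR) and of 1.06 and 1.02 under TCDD (adjusted p = 0.164 and 0.24, edgeR), so that neither passed in either comparison alone. These 5 genes were chosen for their vehicle difference, which enters the value. The vehicle side of these values rests on the libraries described above, and Apol7c, at -3.64 with an adjusted p of 0.0602, did not pass.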

How the results depend on the processing

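The call of 0 genes held in 17 of the 19 alternatives; DESeq2 called 4 genes and limma voom with library quality weights 2826 (1527 higher, 1299 lower), with 5846 at an unadjusted p under 0.05. That unadjusted count, 1025 with all libraries, was 1713 with no filter on low counts (24920 genes tested), 340 with the percent outside protein-coding genes as covariate, 134 without the libraries over 2% outside protein-coding genes, 351 when a difference of at least 2-fold was tested, and 208 without WT 1 and those libraries together, a setting chosen after seeing the data, as was the mean of WT and dHSC vehicle as control (0 called, 1084 unadjusted). Leaving out each mouse in turn gave 252 (without dHep 9) to 3618 (without dHep 3). The groups share no mouse numbers, so the labels pair no mice; a block of 6 neighbouring numbers, each with 1 vehicle mouse of either group, gave 0 called and 1429 unadjusted.

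Of 30 named genes, 26 kept their direction in every alternative. The groups do not overlap for 25 of the 30, and for most of these that was part of the rule that chose them. Refits of the same libraries could hardly turn such genes, so the count of 26 supports none of them. Nqo1, near 0, turned to 0.0136 with RLE scaling, 0.00701 with the 6 libraries alone, 0.014 with DESeq2, 0.24 with the covariate, 0.20 without the libraries over 2%, 0.0444 without WT 1 and those libraries, and spanned -0.19 to 0.17 with each mouse left out. Ahr turned to 0.0589 with the covariate and 0.14 without the libraries over 2%. Tiparp turned to 0.0617 without WT 1 and the libraries over 2%, and spanned -0.40 to 0.0645 with each mouse left out. Cyp1a2 turned to 0.0392 with library quality weights. The causes were not tested. Without the libraries over 2%, 372 genes were called under TCDD against 288 with all. Low-count genes such as Ahrr (12 reads in WT) are limited by depth.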
